A study of Homo sapiens with 6 samples.

Results

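The genes described here set how a cell senses, makes, takes up and exports sterols. They are SREBF1 and SREBF2, SCAP, INSIG1 and INSIG2, STARD4, MYLIP and ABCA1, found as the rows of the count table that carry these names, 8 of 58735 genes. They were measured by sequencing poly(A)-selected RNA of Panc-1, an epithelial cell line from a human pancreatic cancer, labelled wild type in all samples. The cells had been grown for 72 h beside cancer-associated fibroblasts (CAF) that overexpress PAI-1 (3 libraries, PAI-1 libraries below) or beside CAF (3 libraries, CAF libraries below). PAI-1 blocks the proteases that activate plasminogen. The question is whether the regulators in Panc-1 differ when the fibroblasts beside it make more of this protein.

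The CAF columns are headed CAF-NC, and what NC stands for, the source of the CAF, the way they were made to overexpress PAI-1 and how the cell types were separated are left unsaid by the labels. The text on RNA extraction speaks of a different line, Cal27, whereas every other label names Panc-1. Of 6 squamous markers, all were under 1 CPM (counts scaled to the library's total) in every library. Of 8 pancreatic epithelial markers, 1 was. The highest, KRT8, averaged 1112 CPM in PAI-1 and 1036 CPM in CAF libraries. EPCAM averaged 7.90 and 7.22 CPM, and CDH1 only 0.99 and 1.71 CPM, in the same order. Defining fibroblast genes were near 0: FAP and PDGFRA had 0 counts in the PAI-1 libraries and 1 count each in the CAF libraries. The summed level of the 13 fibroblast markers, mostly S100A4, COL1A1 and FBLN1, was nevertheless 617 to 721 CPM in PAI-1 and 501 to 522 CPM in CAF libraries, and its part in the results below was not tested. Libraries held 13628508 to 16006880 counts. PAI-1 replicate 2 stood apart with 3.78% of its counts from mitochondrial genes, against 4.76% and 5.12% in the other PAI-1 libraries and 5.53% to 5.92% in the CAF libraries.

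SREBF1 and SREBF2 encode SREBP-1 and SREBP-2, transcription factors made as precursors in the membrane of the endoplasmic reticulum. SCAP escorts them to the Golgi, where proteases release the active part, and the INSIG proteins hold SCAP back when sterols are plentiful. SREBP-2 chiefly drives genes of cholesterol synthesis and uptake, SREBP-1 those of fatty acid synthesis, and INSIG1, SREBF2 and STARD4 are themselves known targets of the pathway. The LXR receptors, which sense oxysterols, drive the counterpart: ABCA1 for export, MYLIP for the breakdown of lipoprotein receptors, and SREBF1.

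Stretches of promoter are shown for 4 members that fell. That of SREBF2 holds the core letters by which SREBP is known to bind and that of ABCA1 those of an LXR site. Those of INSIG1 and STARD4, known targets of SREBP, hold the box of a partner factor but no exact match to the SREBP core letters. The stretches come from RefSeq windows of 250 bases before each gene start on GRCh38.p14, available for all 8 genes. Variant letters and sites outside these windows were not searched. For the first 3 members shown, the stretch ends where the GENCODE gene begins. In capitals are the core of the sterol regulatory element, TCACNCCAC, the box of the partner factor NF-Y, CCAAT, and in ABCA1 the LXR element, each searched on both strands. No capital stretches overlap.
SREBF2, chr22:41832855-41833078, plus strand: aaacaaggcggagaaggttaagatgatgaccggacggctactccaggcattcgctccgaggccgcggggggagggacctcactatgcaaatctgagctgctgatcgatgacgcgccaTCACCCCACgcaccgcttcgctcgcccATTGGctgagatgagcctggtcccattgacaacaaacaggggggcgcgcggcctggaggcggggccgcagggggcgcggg
INSIG1, chr7:155297628-155297775, plus strand: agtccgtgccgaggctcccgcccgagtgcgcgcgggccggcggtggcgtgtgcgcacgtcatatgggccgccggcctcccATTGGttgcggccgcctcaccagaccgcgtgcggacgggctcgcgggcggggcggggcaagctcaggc
STARD4, chr5:111512591-111512785, minus strand: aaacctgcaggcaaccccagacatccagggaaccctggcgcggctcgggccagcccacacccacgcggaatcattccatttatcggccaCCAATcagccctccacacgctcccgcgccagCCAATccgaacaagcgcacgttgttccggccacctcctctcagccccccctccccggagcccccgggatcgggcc
ABCA1, chr9:104928203-104928232, minus strand: acaggcttTGACCGATAGTAACCtctgcgc
The sterol element core was found in the SREBF2 window alone among the 8 genes, starting 133 bases before the RefSeq gene start, and in 0.883% of 35116 windows of this length. An NF-Y box stood in the windows of 4 of the 8 genes, SREBF2, INSIG1, STARD4 and MYLIP, and in 32% of all windows. The letters searched for the LXR element, TGACC and TAACC with any 5 bases between them, were taken from the known site of ABCA1, so its own match is given by that choice. They occur in 0.0484% of windows. A GC box, GGGCGG, stood in a window of each of the 8 genes and in 42.6% of all windows.

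Of the 8 regulators, 5 were lower with CAF overexpressing PAI-1 and none was higher past the threshold: INSIG1, SREBF1, STARD4, SREBF2 and ABCA1. INSIG1 changed most, to 44.8% of its level in the CAF libraries, and the others that fell stood at 61.2% to 79.7%. SCAP, INSIG2 and MYLIP did not pass. A gene is called changed when its Benjamini-Hochberg adjusted p from edgeR's quasi-likelihood test, over the 14960 genes that passed the filter on low counts, is under 0.05. All 8 regulators passed that filter. Of all genes tested, 32.2% were called changed, 15% lower and 17.2% higher, so that a lower call was common in these libraries. Scaling by library size alone gave 3182 genes lower and 1839 higher, against 2239 and 2571 with TMM, the scaling used here. In bulk RNA, fewer cells of a type and less RNA per cell cannot be told apart. The median log2 fold change of the 8 regulators was -0.42 and that of all genes tested was -0.0015.

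**Figure D1:**
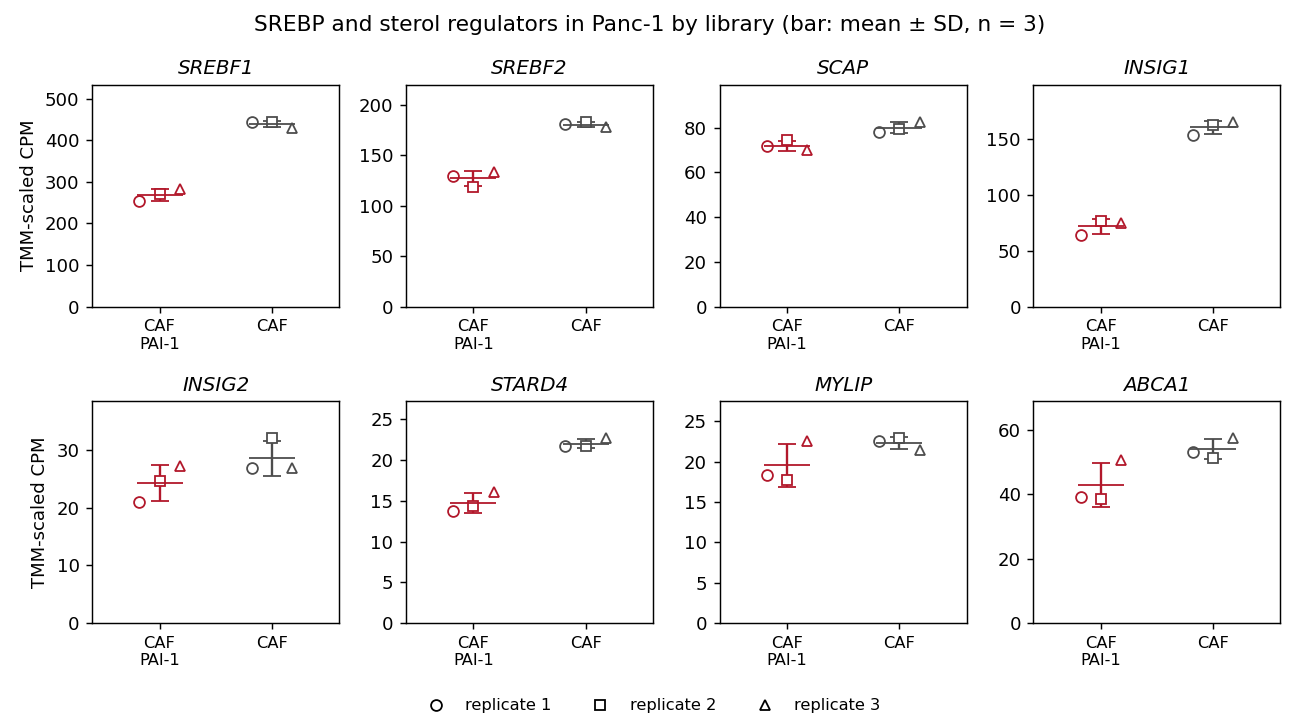
TMM-scaled CPM (y axes, each from 0) of the 8 regulators in the 3 PAI-1 libraries (left, red) and the 3 CAF libraries (right, grey), with markers for replicate numbers and bars for mean and SD. The groups are apart for 6 genes and overlap for INSIG2 and MYLIP.

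The SREBP genes themselves were lower. SREBF1 (ENSG00000072310) had 253, 269.8 and 283 CPM in the PAI-1 libraries, against 445, 444 and 431 CPM in the CAF libraries. From here on CPM is scaled by TMM, and values follow replicates 1, 2 and 3. Every PAI-1 library lay below every CAF library, and SREBF1 fell by 0.71 on the log2 scale (SE 0.054, edgeR adjusted p = 1.74e-12). SREBF2 (ENSG00000198911) had 129, 118 and 133 CPM in the PAI-1 libraries, against 180.5, 183 and 178 CPM in the CAF libraries. The groups were again apart, with a log2 fold change of -0.51 (SE 0.057, edgeR adjusted p = 1.28e-08). SREBF1 spans chr17:17810399-17837002 on the minus strand and SREBF2 chr22:41833079-41907308 on the plus strand of GRCh38, by GENCODE 29.

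The genes of the sterol-sensing complex differed from each other. INSIG1 (ENSG00000186480, chr7:155297776-155310235, plus strand) had 64.2, 76.6 and 74.5 CPM in the PAI-1 libraries, against 153, 162 and 165 CPM in the CAF libraries. Every PAI-1 library was far below every CAF library, and the log2 fold change was -1.16 (SE 0.065, edgeR adjusted p = 7.19e-16). Among the 1839 tested genes with a mean CPM at least that of INSIG1, itself included, 1 had a lower log2 fold change, and over all tested genes 1.15% did. SCAP (ENSG00000114650, chr3:47413694-47477126, minus strand) had 71.6, 74.4 and 69.9 CPM in the PAI-1 libraries, against 77.9, 79.5 and 82.6 CPM in the CAF libraries. These groups did not overlap, but the log2 fold change of -0.15 (95% interval -0.28 to -0.023) did not pass (edgeR adjusted p = 0.0658). INSIG2 (ENSG00000125629, chr2:118088452-118110997, plus strand), the paralog whose gene is not known as a strong SREBP target, had 21.0, 24.6 and 27.2 CPM in the PAI-1 libraries, against 26.8, 32.0 and 26.8 CPM in the CAF libraries. PAI-1 replicate 3 lay within the range of the CAF libraries, and the log2 fold change of -0.24 (95% interval -0.44 to -0.032) did not pass (edgeR adjusted p = 0.07). Groups without overlap were seen for 6 of the 8 regulators, all lower in the PAI-1 libraries, and for 43.4% of all genes tested, with 21.1% of all genes tested on the lower side.

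**Figure D2:**
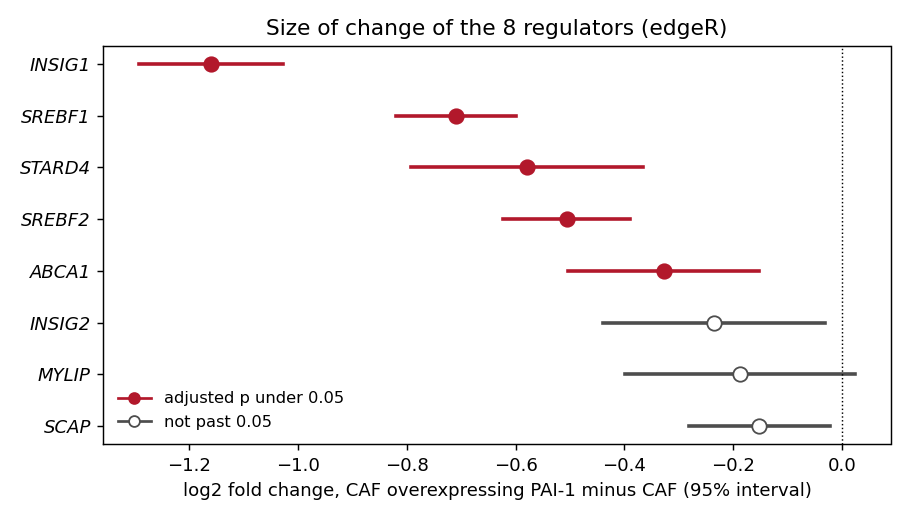
Log2 fold change (x axis, PAI-1 minus CAF libraries) of each regulator with its 95% interval from the edgeR fit. Filled red points passed the threshold, and the interval of INSIG1 lies below those of the other 7.

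The balance between paralogs was compared within libraries, where the scaling of libraries has no part. There were 3.06, 3.11 and 2.74 INSIG1 reads per INSIG2 read in the PAI-1 libraries, against 5.72, 5.06 and 6.16 in the CAF libraries. The mean log2 ratio was 1.57 ± 0.099 in PAI-1 and 2.49 ± 0.14 in CAF libraries (SD, n = 3 each), a difference of -0.92, larger than the spread between replicates. SREBF1 reads per SREBF2 read were 1.96, 2.28 and 2.12 in the PAI-1 libraries, against 2.46, 2.42 and 2.42 in the CAF libraries. That difference in mean log2 ratio was -0.20, with SDs of 0.11 in PAI-1 and 0.013 in CAF libraries. The groups did not overlap for either pair. Each two-sided exact permutation test gave p = 0.1, also after adjustment over both pairs, which is the smallest p that 3 libraries against 3 allow.

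**Figure D3:**
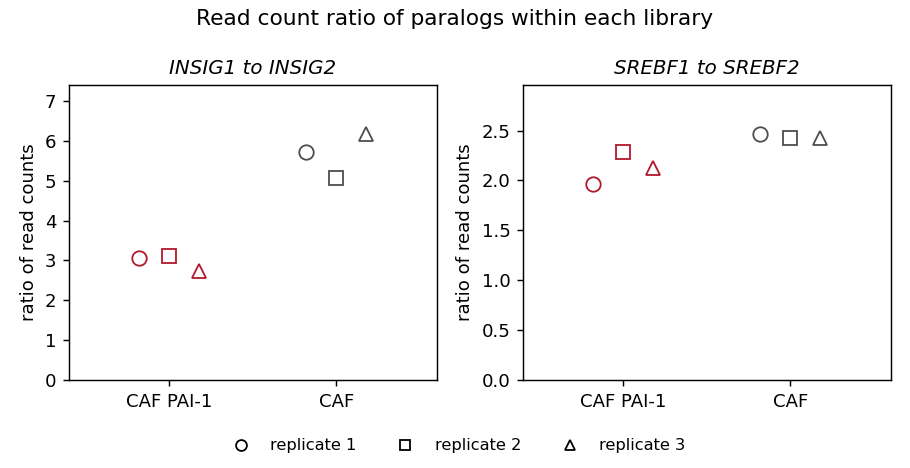
INSIG1 reads per INSIG2 read (left panel) and SREBF1 reads per SREBF2 read (right panel) in each library, PAI-1 libraries left and CAF libraries right, on axes from 0. The INSIG ratio lies between 2.74 and 3.11 in PAI-1 and between 5.06 and 6.16 in CAF libraries, and the SREBF ratio between 1.96 and 2.28 and between 2.42 and 2.46.

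STARD4, a small cytosolic carrier of sterols between membranes, was lower. It had 13.7, 14.3 and 16.1 CPM in the PAI-1 libraries, against 21.7, 21.7 and 22.7 CPM in the CAF libraries, from 197 to 249 and from 315 to 358 reads. The groups were apart and the log2 fold change was -0.58 (SE 0.10, edgeR adjusted p = 4.75e-05). STARD4 (ENSG00000164211) spans chr5:111496033-111512590 on the minus strand.

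ABCA1 and MYLIP, both targets of LXR, differed in their calls: ABCA1 fell and MYLIP did not pass. ABCA1, the transporter that loads cholesterol onto apolipoproteins, had 39.2, 38.5 and 50.6 CPM in the PAI-1 libraries, against 53.0, 51.2 and 57.2 CPM in the CAF libraries. PAI-1 replicate 3 came close to the lowest CAF library without reaching it. ABCA1 fell by 0.33 on the log2 scale (SE 0.086, edgeR adjusted p = 0.00364). MYLIP, also called IDOL, a ubiquitin ligase that marks lipoprotein receptors for breakdown, had 18.3, 17.7 and 22.6 CPM in the PAI-1 libraries, against 22.6, 22.9 and 21.4 CPM in the CAF libraries. PAI-1 replicate 3 lay among the CAF libraries here too, and the log2 fold change of -0.19 (95% interval -0.40 to 0.023) did not pass (edgeR adjusted p = 0.173). Without PAI-1 replicate 3, the log2 fold change was -0.30 for MYLIP (edgeR adjusted p = 0.0449) and -0.33 for INSIG2 (0.0291), both past the threshold. Without that library ABCA1 had -0.47 (edgeR adjusted p = 9.54e-05). Other omissions moved these values in both directions. Away from 0, INSIG2 had -0.28 and MYLIP -0.21 without CAF replicate 3, and ABCA1 had -0.36 without CAF replicate 2. Towards 0, INSIG2 had -0.14 without CAF replicate 2 (edgeR adjusted p = 0.367) and -0.14 without PAI-1 replicate 1 (0.32). MYLIP had -0.13 without PAI-1 replicate 2 (edgeR adjusted p = 0.41), and ABCA1 had -0.26 without that library (0.00747), still past the threshold. ABCA1 (ENSG00000165029) spans chr9:104781002-104928237 on the minus strand and MYLIP (ENSG00000007944) chr6:16129125-16148248 on the plus strand.

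Relative to the mean, spread between replicates was wider in the PAI-1 libraries for each of the 8 regulators. The coefficient of variation of CPM was 3.15% for SCAP to 15.9% for ABCA1 in the PAI-1 libraries. In the CAF libraries it was 1.51% for SREBF2 to 10.5% for INSIG2, and 2.98% for SCAP. The share of all genes tested with wider spread in the PAI-1 libraries was not counted, so this may not be particular to the regulators. PAI-1 replicate 3 held the highest PAI-1 value for SREBF1, SREBF2, INSIG2, STARD4, MYLIP and ABCA1, but not for INSIG1 and SCAP.

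Levels of different genes can be set side by side per length of exon, as RPKM, CPM per kilobase, over the union of exons in GENCODE 29. Which transcripts of each gene were expressed was not measured, so the order between genes rests on these union lengths. The order was the same in both groups: SREBF1, INSIG1, SREBF2, SCAP, MYLIP, INSIG2, ABCA1 and STARD4. SREBF1 averaged 33.5 ± 1.88 RPKM in PAI-1 and 54.8 ± 0.98 RPKM in CAF libraries, and STARD4 2.59 ± 0.22 RPKM in PAI-1 and 3.87 ± 0.097 RPKM in CAF libraries. INSIG1, at 19.7 ± 1.81 RPKM in the PAI-1 libraries and 43.9 ± 1.68 RPKM in the CAF libraries, was close to SREBF2 in the PAI-1 libraries alone, where SREBF2 had 16.8 ± 1.03 RPKM, against 23.9 ± 0.36 RPKM in the CAF libraries. MYLIP and INSIG2 lay within each other's spread in both groups, with 6.44 ± 0.87 and 6.14 ± 0.78 RPKM in PAI-1 libraries and 7.35 ± 0.25 and 7.23 ± 0.76 RPKM in CAF libraries (SD, n = 3 each).

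Some rows share sequence with the regulators, and no label says whether the counting used strand. SREBF2-AS1 runs antisense to SREBF2 over 280 exon bases and averaged 2.34 ± 0.14 CPM in PAI-1 and 3.88 ± 0.37 CPM in CAF libraries (log2 fold change -0.73, SE 0.23, edgeR adjusted p = 0.0134, or 0.0503 without CAF replicate 2 and 0.0509 without CAF replicate 3). STARD4-AS1 shares 124 exon bases with STARD4 and averaged 0.64 ± 0.16 CPM in PAI-1 and 1.64 ± 0.063 CPM in CAF libraries (-1.37, SE 0.38, edgeR adjusted p = 0.00583). Without strand, reads of these rows and of their partners cannot be told apart over the shared bases. RAI1 shares 556 exon bases with SREBF1 from the opposite strand and had a log2 fold change of -0.16 (SE 0.060, edgeR adjusted p = 0.0416), a call lost when any 1 CAF library or PAI-1 replicate 2 was left out (0.0741 to 0.152) and with DESeq2 (0.0515) or no filter (0.0909).

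Introns of SREBF2 and SREBF1 hold the genes of miR-33a and miR-33b, microRNAs known to repress ABCA1, so their sequences are shown with the seed, bases 2 to 8, in capitals. They are from RefSeq on GRCh38.p14 and share the same seed.
hsa-miR-33a-5p, chr22:41900949-41900969, plus strand: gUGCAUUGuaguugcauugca
hsa-miR-33b-5p, chr17:17813897-17813916, minus strand: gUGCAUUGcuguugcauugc
ABCA1 3′ UTR, chr9:104784158-104784181, minus strand: tCAATGCAATGCAattCAATGCAa
The last line shows, in capitals, 3 of the 4 matches to the seed, CAATGCA on the transcript strand, in the 3313 bases of the longest 3′ UTR of ABCA1 in GENCODE 29, where the leading matches overlap. Of the other regulators, SCAP had 1 match and the rest none. Such a match stood in 8.43% of 19128 genes with a 3′ UTR and in 26.7% of those with a UTR at least as long as that of ABCA1, and at least 3 matches in 1.13% of these. The host genes fell as given above, but poly(A) libraries do not measure mature microRNAs. The row of MIR33A had 0 counts in each of the 6 libraries, where 3 counts would be 0.187 to 0.22 CPM. That of MIR33B had 0, 1 and 0 counts in PAI-1 and 4, 0 and 2 counts in CAF libraries.

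The enzymes of sterol synthesis, the best known targets of SREBP-2, were mostly lower. Of 20 in the list, all tested, 17 fell and 1 rose, where 15% of all genes tested were called lower and 17.2% higher. The median log2 fold change was -0.59, against -0.0015 over all genes tested. MSMO1, a sterol oxidase, averaged 34.5 ± 2.11 CPM in PAI-1 and 71.4 ± 5.76 CPM in CAF libraries, with a log2 fold change of -1.05 (SE 0.076). DHCR7, which acts at the end of the pathway, had -0.81 and FDFT1, which makes squalene, -0.79. PMVK, a mevalonate pathway kinase, rose by 0.25 (edgeR adjusted p = 0.0167), a call lost without CAF replicate 3 (0.0916) or PAI-1 replicate 2 (0.123) and with library size alone (0.0826), and CYP51A1 and NSDHL did not pass.

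Fatty acid genes known as targets of SREBP-1 were lower as well. Of 15 listed genes 14 were tested, and 9 fell and none rose (median log2 fold change -0.44). Over all genes tested, 15% were called lower and 17.2% higher, and the median was -0.0015. FASN, the fatty acid synthase, averaged 654 ± 38.6 CPM in PAI-1 and 1217 ± 94.8 CPM in CAF libraries (log2 fold change -0.90, SE 0.059). LPIN1, a phosphatidate phosphatase, fell to 49.9% of its level in the CAF libraries and FADS2, a fatty acid desaturase, to 57.5%. ACSS2, ACACB, GPAM, MID1IP1 and ME1 did not pass, with log2 fold changes from -0.30 to -0.089.

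**Figure D4:**
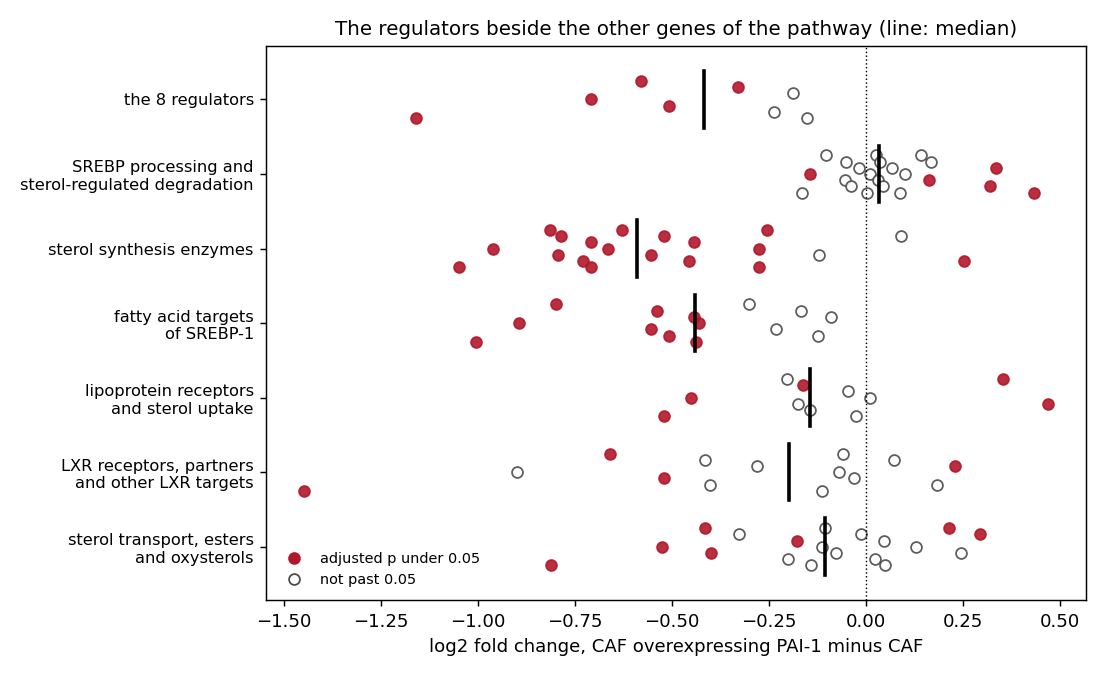
Log2 fold change (x axis, PAI-1 minus CAF libraries) of the 8 regulators and of the tested genes of 6 lists of the pathway, with filled red points past the threshold and a black line at each median. Sterol synthesis and fatty acid genes lie mostly below 0, and genes of SREBP processing around it.

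Genes that carry, cut and degrade SREBP and its partners mostly did not pass. Of 22, all tested, 4 rose and 1 fell, with a median log2 fold change of 0.034. The share that rose was near the 17.2% of all genes tested that were called higher, and the share that fell was under the 15% called lower. MBTPS1, the site-1 protease that makes the initial cut in SREBP, averaged 153 ± 3.98 CPM in PAI-1 and 169.6 ± 3.68 CPM in CAF libraries and fell by 0.14 on the log2 scale (SE 0.055, edgeR adjusted p = 0.0413). That call was lost without CAF replicate 1, 2 or 3 or PAI-1 replicate 3 (edgeR adjusted p 0.0523 to 0.172) and without a filter on low counts (0.12). MBTPS2, the site-2 protease, had -0.16 (95% interval -0.32 to -0.0087) and did not pass (edgeR adjusted p = 0.1). Of the 4 that rose, those with the smallest p were SAR1A at 0.34, SEC24D at 0.43 and SEC23B at 0.32. They are parts of the COPII coat that carries SCAP and other cargo out of the endoplasmic reticulum. SAR1B, SEC23A and SEC24C, the other COPII genes of the list, did not pass (0.031, 0.0029 and 0.089 on the log2 scale).

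Most genes of lipoprotein uptake did not pass. Of 13 listed genes 11 were tested, and 3 fell and 2 rose (median log2 fold change -0.14), where 15% of all genes tested were called lower and 17.2% higher. SORT1, a sorting receptor, fell by 0.52 on the log2 scale. VLDLR, a lipoprotein receptor that MYLIP targets, rose by 0.47 (edgeR adjusted p = 0.00204), and SCARB1, the HDL receptor, rose by 0.35 (edgeR adjusted p = 3.38e-06). With library size alone, 6 genes of this list fell.

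Most genes of the LXR list did not pass. Of 18, 14 were tested, and 3 fell and 1 rose (median log2 fold change -0.20), beside 15% lower and 17.2% higher over all genes tested. NR1H2, which encodes LXR-beta, averaged 70.8 ± 5.59 CPM in PAI-1 and 67.3 ± 2.22 CPM in CAF libraries, a log2 fold change of 0.074 (95% interval -0.065 to 0.21). NR1H3, which encodes LXR-alpha, had 5.74 ± 0.34 CPM in PAI-1 and 7.54 ± 1.59 CPM in CAF libraries, a log2 fold change of -0.40 (95% interval -0.75 to -0.054) that did not pass (edgeR adjusted p = 0.0704). RXRB, a partner receptor, fell by 0.52, SMPDL3A, a secreted phosphodiesterase, by 0.66 and MLXIPL, a glucose-responsive factor at 0.94 ± 0.81 CPM in PAI-1 and 2.59 ± 0.077 CPM in CAF libraries, by 1.45, though DESeq2 did not call MLXIPL (adjusted p = 0.158). The log2 fold change of MLXIPL was -2.26 without PAI-1 replicate 1 and -0.97 without PAI-1 replicate 2. APOE, an apolipoprotein, rose by 0.23 (edgeR adjusted p = 0.0286), a call that ended with library size alone (0.127), with DESeq2 (0.0563) and when any 1 library other than PAI-1 replicate 1 was left out (edgeR adjusted p 0.0538 to 0.13). With library size alone, 6 genes of this list fell.

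Among 25 genes of sterol transport, esters and oxysterols, 19 were tested, and 5 fell and 2 rose (median log2 fold change -0.11), beside the same shares over all genes. GRAMD1C and GRAMD1A, carriers of sterol from plasma membrane to endoplasmic reticulum, had -0.81 and -0.40 and OSBP2, an oxysterol-binding protein, -0.52. NCEH1, a hydrolase of cholesterol esters, rose by 0.30 (edgeR adjusted p = 3.57e-05) and TSPO, a cholesterol-binding protein of mitochondria, by 0.21 (edgeR adjusted p = 0.0143). The call of TSPO was lost without CAF replicate 1 (edgeR adjusted p = 0.0719) or 3 (0.0806) or PAI-1 replicate 2 (0.0665) and with library size alone, where 8 genes of the list fell and 1 rose.

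Genes whose profile was most like that of a member were sought among tested genes of at least 5 mean CPM, by the root mean square distance of log2 CPM centred over the 6 libraries. SREBF1 lay nearest to FDPS, a sterol synthesis enzyme (distance 0.030), and HMGB2 (0.031), and STARD4 nearest to ZNF395 (0.038) and SCD, a fatty acid desaturase (0.044). For INSIG1 they were CREBRF (0.049) and ARID5B (0.063), for SREBF2 OSBP2 and HP1BP3 (0.023 each) and for ABCA1 MTHFSD (0.041) and SERINC5 (0.046). With 6 libraries in 2 groups these distances describe the libraries and carry no test.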

How the data were processed

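RNA of 6 Panc-1 libraries was measured. The authors deposited a table of whole-number counts per gene, 1 column per library, and 0 further sample columns were left aside. Per the submitters' processing notes, BWA, Bowtie2, RSEM and hg19 were used, with no versions or roles given, and nothing says which step made the counts. Gene identifiers are those of GENCODE 29 on GRCh38, which differs from hg19, so coordinates identify genes and are not alignment positions.

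The test was edgeR 4.0.16 (R 4.3.3): filterByExpr (minimum count 10, total 15), TMM, estimateDisp, robust glmQLFit and glmQLFTest, no covariates, Benjamini-Hochberg under 0.05. Standard errors are the log2 fold change over the root of F. Paralog ratios had exact two-sided permutation tests.

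Library totals of 13628508 to 16006880 put 3 counts at 0.187 to 0.22 CPM, and such limits cover counting error only. Chi-square per degree of freedom within groups was 2.58 to 9.51, so no library was a copy of another. The labels call the replicates biological and do not say whether they were separate cultures or experiments, so p-values measure the spread among these libraries.

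Members and lists were chosen with earlier results of these data known. Named genes are the members, the 3 genes of each list with the smallest p per direction among changed genes, fixed partners (MBTPS1, MBTPS2, NR1H2, NR1H3) and the nearest neighbours of changed members. Genes that did not pass, overlapping rows and markers are named beside them. Some genes that this rule names are not reported here. The alternatives tried were scaling by RLE or by library size alone, other filters, DESeq2 1.42.0, limma-voom (limma 3.58.1), no robust estimation, a replicate block, mitochondrial genes left out, a ratio pseudocount and each library left out.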

Additional observations from a re-analysis of the deposited data

How the results depend on the processing

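INSIG1, SREBF1, SREBF2, STARD4 and ABCA1 were lower and past the threshold under all 15 alternatives, with log2 fold changes from -1.23 to -1.09 for INSIG1 and from -0.47 to -0.26 for ABCA1 (edgeR, DESeq2 or limma-voom adjusted p 9.54e-05 to 0.0302 for ABCA1). The number of regulators that fell was 5 to 7, and none rose. INSIG2 passed in 4 alternatives, SCAP in 3 and MYLIP in 1, all with the same sign. With library size alone, INSIG2 had -0.30 and SCAP -0.22, and the counts of the lists were 3 lower for SREBP processing, none higher for sterol synthesis, 6 lower for uptake, none higher and 6 lower for LXR, and 1 higher and 8 lower for sterol transport. With a mean of at least 10 CPM, 2 SREBP processing and 5 uptake genes fell, with no filter 0 SREBP processing genes fell, and with DESeq2 0 LXR genes rose. Leaving out each library gave 0 to 2 lower for SREBP processing, 0 to 1 higher for sterol synthesis, 0 to 1 higher for LXR and 1 to 2 higher for sterol transport. The paralog ratio differences kept their sign with a pseudocount of 0.5 and without each library. Causes were not tested.

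Deviations from the group mean were hardly correlated between same-numbered libraries (0.0023, 0.012 and 0.0063 for replicates 1, 2 and 3). Between differently numbered libraries the correlations were -0.010 to 0.0047. Counting noise in most genes can hide a shared culture, so these values cannot decide whether the numbers pair the samples. The labels do not say. The replicate block gave 2708 genes higher and 2361 lower, 5 uptake genes lower, and INSIG2 past the threshold (edgeR adjusted p = 0.0472). MIR33A and MIR33B, at 0 to 4 counts a library, were too low to compare, in libraries that do not measure mature microRNAs.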
